A study of Mus musculus with 3 samples.

Results

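The solute carriers are membrane proteins that move ions, metals, sugars, amino acids, nucleotides and organic molecules across the cell surface and the membranes of organelles. Their genes carry the symbol Slc, a family number and a member number. The genes described here were all those whose symbol has that form and which had a value on each of 3 arrays, apart from Slc2a1. They numbered 210 of the 14047 genes with values on all 3 arrays, and 229 such symbols were on the array in all. The rule uses the symbol and the presence of values, not their size or sign. The 210 genes fell into 48 families, of which 19 had 4 or more measured members and 11 had a single one. By what their names stand for, 204 are carriers. The other 6 are genes named for the strand opposite a carrier gene (Slc36a1os, Slc6a19os, Slc7a6os), an adaptor (Slc4a1ap) and the scaffold genes Slc9a3r1 and Slc9a3r2, whose proteins bind a carrier.

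Metanephroi of 11.5 days post coitum (dpc), the permanent kidneys at an early stage, were set against the metanephric mesenchyme of 10.5 dpc. From this mesenchyme the nephrons later form. Both tissues were microdissected from CD1 mouse embryos of both sexes, pooled, and their RNA was amplified before labelling. Each of the 3 two-colour Compugen oligonucleotide arrays held metanephroi in channel 2 and mesenchyme in channel 1, with the dyes in red/green order on arrays 1 and 2 and in green/red order on array 3. Whether the arrays came from separate dissections is unsaid in the labels, and the p-values cover the spread over the arrays alone, part or all of which may be technical.

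The deposited value of a gene on an array is a log2 ratio of the channels. The sources used here do not give the numerator channel. Each ratio is therefore described by its sign, and neither sign is assigned to a tissue. A ratio also carries no level. Whether a carrier was well above background in either tissue is therefore not known from these values, fewer cells of a type and less RNA per cell cannot be told apart, and the carriers are not ranked by abundance. Values of a gene are given in the order array 1, array 2 and array 3, followed by their mean ± SD (n = 3 throughout).

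In the mature kidney solute carriers do most of the work of reabsorption. The proximal tubule recovers glucose, amino acids, phosphate, bicarbonate and organic acids through sodium-coupled carriers, the loop of Henle and distal tubule recover salt through cation and chloride cotransporters, and organic anion and cation carriers secrete drugs and waste. At 10.5 and 11.5 dpc no nephron has formed, and carriers of the household kind, which feed any growing cell with iron, zinc, amino acids and mitochondrial metabolites, make up much of the family.

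The Slc genes were spread evenly over both sides. A positive mean was found for 102 genes (48.6%, against 49.8% of all genes) and a negative mean for 108, and the median of the means was -0.021 on the log2 scale, against -0.0019 for all genes tested. By limma with Benjamini-Hochberg adjustment over all genes, 0 of the 210 passed an adjusted p of 0.05, as did 0% of all genes, and 6 Slc genes shared the lowest adjusted p of any gene, 0.149. The unadjusted threshold of 0.05 was passed by 35 Slc genes, or 16.7%, where 19.6% of all genes passed. Of these, 17 were positive (9.89% of all genes passed on that side) and 18 were negative (9.69% of all genes). The share of Slc genes past the unadjusted threshold thus lay near that of all genes.

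The ratios were also close to those of all genes in size. A mean log2 ratio of at least 1 in size was reached by 12 Slc genes (5.71%) and by 8.06% of all genes. Of the 12, 6 were positive, where 3.55% of all genes lay, and 6 were negative, where 4.51% lay. The median size of the mean was 0.29 for the Slc genes and 0.31 for all genes, with a median SD over the arrays of 0.34 for both. All 3 arrays gave one sign for 95 Slc genes (45.2%, against 45.5% of all genes), 48 of them positive (22.9% of all genes) and 47 negative (22.5% of all genes).

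**Figure D1:**
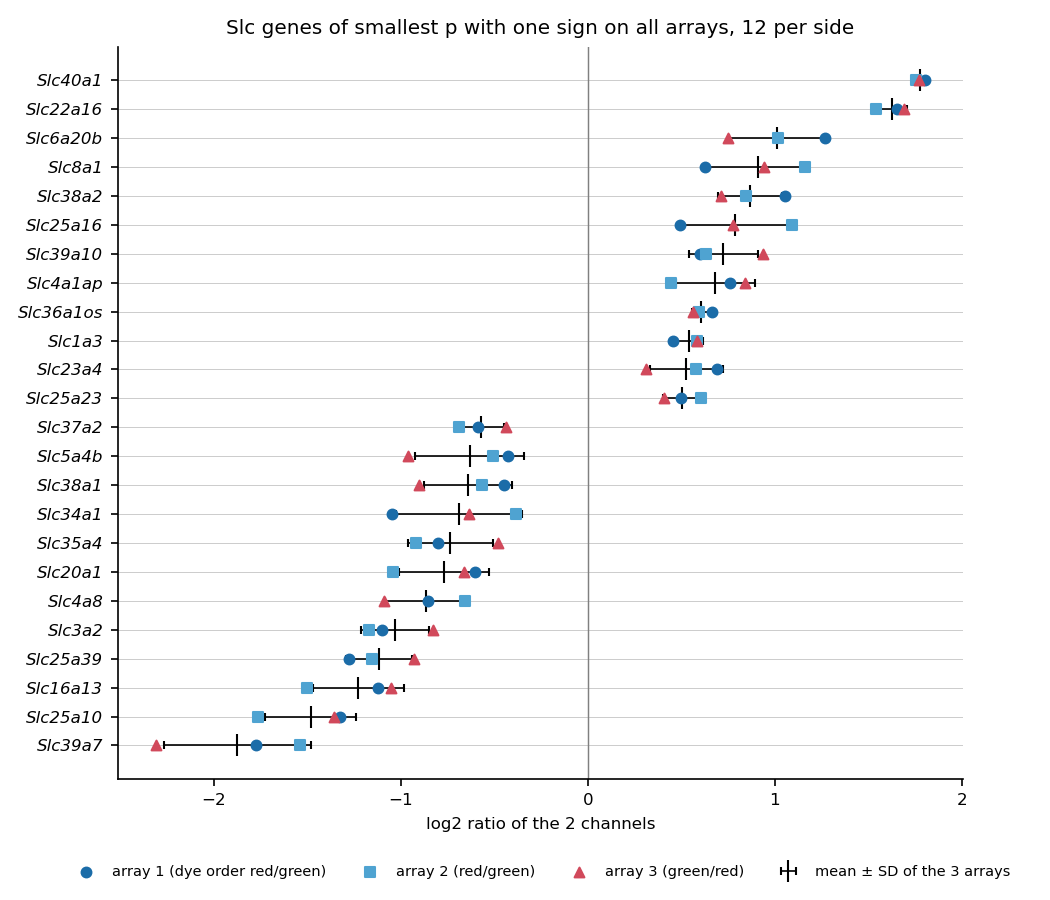
Log2 ratios of 24 Slc genes, the 12 on each side with the smallest unadjusted p among those with one sign on every array. Genes run down the page and the log2 ratio is on the horizontal axis, with a point for each of the 3 arrays. A tick with a bar gives the mean ± SD. Slc40a1 and Slc22a16 stand apart on the positive side at means of 1.78 and 1.63, and Slc39a7 lies farthest on the negative side at -1.87.

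Metal carriers held the largest ratio on each side among the Slc genes past an unadjusted p of 0.05. Of 24 measured metal carriers 10 had positive and 14 negative means, with 3 positive and 1 negative past an unadjusted p of 0.05 and a median of -0.08. The shares of all genes past that threshold were 9.89% positive and 9.69% negative. Slc40a1 encodes ferroportin, the one known exporter of iron from cells. Its log2 ratios were 1.80, 1.75 and 1.77, a mean of 1.78 ± 0.025 with an adjusted p of 0.149 by limma. The 3 values lay closer together than those of any other gene in the plot of the leading Slc genes.

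Slc39a7 encodes a zinc importer of the endoplasmic reticulum that releases zinc into the cytosol. It stood at -1.78, -1.54 and -2.31, a mean of -1.87 ± 0.39 (adjusted p = 0.149, limma), which made it the lowest of the 210 genes. Slc39a10, a zinc importer of the cell surface, was on the other side with 0.60, 0.63 and 0.94 (mean 0.72 ± 0.18). Slc39a8 of the same family, which carries zinc, manganese and iron, had 0.43, 0.40 and 0.55 (mean 0.46 ± 0.08). The importers of family 39 thus had members past the unadjusted threshold on both sides, 2 positive and 1 negative of 10. Among all genes 9.89% and 9.69% passed on these sides.

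Zinc carriers are known for a promoter element, the metal response element, through which zinc acts on transcription by way of the factor MTF1, with Slc30a1 as the classic case. The 3 promoter windows below are shown because they belong to zinc carriers at the low, middle and positive parts of the range. They are RefSeq windows of the build GRCm38.p6, from 250 bases before to 50 bases after the annotated start, printed 5′ to 3′ on the gene's strand with matches to the element in capitals.
Slc30a1, chr1:191906531-191906830, plus strand: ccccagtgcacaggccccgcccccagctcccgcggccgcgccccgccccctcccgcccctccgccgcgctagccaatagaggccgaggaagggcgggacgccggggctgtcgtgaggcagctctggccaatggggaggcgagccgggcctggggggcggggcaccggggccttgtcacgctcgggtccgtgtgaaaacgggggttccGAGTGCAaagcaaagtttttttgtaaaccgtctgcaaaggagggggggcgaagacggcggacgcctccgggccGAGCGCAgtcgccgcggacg
Slc39a8, second annotated start, chr3:135825407-135825706, plus strand: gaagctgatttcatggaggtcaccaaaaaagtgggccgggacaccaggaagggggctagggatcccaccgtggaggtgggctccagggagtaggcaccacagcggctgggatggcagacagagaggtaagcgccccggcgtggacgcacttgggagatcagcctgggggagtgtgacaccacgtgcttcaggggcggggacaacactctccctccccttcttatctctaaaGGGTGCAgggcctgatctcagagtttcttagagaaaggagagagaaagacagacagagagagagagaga
Slc39a7, chr17:34031641-34031940, minus strand: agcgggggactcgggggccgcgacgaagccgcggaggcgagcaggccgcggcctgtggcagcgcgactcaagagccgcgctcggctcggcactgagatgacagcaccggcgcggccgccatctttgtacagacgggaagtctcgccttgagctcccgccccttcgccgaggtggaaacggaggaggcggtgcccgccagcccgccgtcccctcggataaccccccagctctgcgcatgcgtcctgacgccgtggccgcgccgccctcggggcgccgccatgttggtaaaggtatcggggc
The letters searched were TGCACNC or TGCGCNC on either strand. The Slc30a1 window held 2 matches, the Slc39a8 window 1 and the Slc39a7 window 0. The window of the first annotated start of Slc39a8, which is not printed, held 0. Of all 32841 RefSeq promoter windows 25.7% held a match, of the 219 windows that 167 Slc genes had 33.8% did, and of the 25 windows of 20 metal carriers 48% did, that is 12. The windows also differed in base composition, with a median GC content of 52.7% over all windows, 58.3% for the Slc genes and 58.7% for the metal carriers. A match is only a match of letters.

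Metal carriers with matches had ratios on both sides of 0. Slc30a1, the zinc exporter of the cell surface with 2 matches, had -0.50, 0.23 and -0.11 (mean -0.13 ± 0.37), which spans 0. Slc30a4, an exporter into vesicles with 3 matches, had a mean of -0.07 ± 0.17. The positive means with a match were those of Slc41a3 at 0.50, Slc39a8 at 0.46, Slc31a2 at 0.085 and Slc30a3 at 0.0015. The remaining metal carriers with a match had negative means. Slc39a10, at 0.72, had no match in either of its windows. Over the 17 zinc exporters and importers of families 30 and 39, 5 means were positive and 12 negative with a median of -0.13. Of the 7 exporters 6 were negative and 0 passed the unadjusted threshold. Of all genes 50.2% had a negative mean and 19.6% passed that threshold. Slc30a9 was lowest among the exporters at -0.68, -0.19 and -1.75 (mean -0.87 ± 0.80), and Slc30a3 was highest at 0.0015 ± 0.08.

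Iron genes other than ferroportin showed smaller ratios. Of the 8 iron genes measured 6 had positive means, and the median of the 8 was 0.08. Slc40a1 and Slc39a8, 2 of the 6, passed an unadjusted p of 0.05, as did 9.89% of all genes on that side. Slc11a2, the proton-coupled iron importer DMT1, had 0.39, 0.13 and 0.10 (mean 0.21 ± 0.16). Slc11a1, its relative in the phagosomes of macrophages, had 0.08, -0.67 and -0.78 (mean -0.46 ± 0.47). The mitochondrial iron importers were near 0 with arrays on both sides, Slc25a37 at a mean of 0.05 ± 0.74 and Slc25a28 at -0.26 ± 0.34. The heme carrier Slc48a1 had 0.05 ± 0.42 and Slc46a1, a carrier of folate and heme, 0.10 ± 0.19.

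Ferroportin is abundant in macrophages and in erythroid and yolk sac cells as well as in kidney, so the markers of those cells are given beside it. Of 6 measured macrophage markers 5 had positive means, with a median of 0.49. An unadjusted p of 0.05 was passed by 3 of them, and on that side by 9.89% of all genes. The highest were Fcer1g at 0.86 ± 0.42 and Lyz2 at 0.81 ± 0.27, while C1qb had -0.58 ± 0.94 and Cd68 had 0.03 ± 0.85. Erythroid markers were 2 positive and 6 negative of 8, with a median of -0.06, the embryonic globin gene Hbb-y at 0.01 ± 0.26 and the factor gene Klf1 at -1.10 ± 0.14. Yolk sac and liver markers were 2 positive and 5 negative of 7, with a median of -1.13. The part of these cells in the ratio of Slc40a1 was not tested.

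Amino acid carriers included members of opposite sign within single families. Of 27 measured carriers 13 were positive and 14 negative, with 2 past the unadjusted threshold on each side and a median of -0.04. On the positive side 9.89% of all genes passed it and on the negative side 9.69%. The sodium-coupled neutral amino acid carriers Slc38a2 and Slc38a1, often described together as the A-system carriers of glutamine and alanine, are the clearest case. Slc38a2 had 1.05, 0.85 and 0.71 (mean 0.87 ± 0.17). Slc38a1 had -0.45, -0.56 and -0.91 (mean -0.64 ± 0.24). No array placed both genes on one side, and both passed an unadjusted but not an adjusted p (0.157 and 0.185 by limma).

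The heteromeric exchangers pair a heavy chain, which brings the complex to the surface, with a light chain that carries the substrate. Slc3a2, the heavy chain known as CD98 or 4F2hc, had -1.10, -1.17 and -0.83 (mean -1.03 ± 0.18, adjusted p = 0.153 by limma). Its light chains lay on both sides of 0. Slc7a5, the main carrier of large neutral amino acids, had 0.29, 1.96 and -0.47 (mean 0.59 ± 1.24), with an SD larger than the mean, and Slc7a10, a carrier of small neutral amino acids, had 0.48, 0.21 and 0.85 (mean 0.51 ± 0.32). Slc7a8 and Slc7a7 had means of -0.19 ± 0.49 and -0.18 ± 0.61. The other heavy chain gene, Slc3a1, had 0.24 ± 0.23, and its light chain partner in the proximal tubule, Slc7a9, had -0.36 ± 0.32. Of the 7 genes of these chains 3 were positive and 4 negative, and Slc3a2 alone passed an unadjusted p of 0.05. On that negative side 9.69% of all genes passed. The light chain genes Slc7a6 and Slc7a11 are not among the members.

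Family 1, of glutamate and neutral amino acid carriers, had 3 positive and 3 negative means. Slc1a3, the glial glutamate carrier GLAST, averaged 0.54 ± 0.07 over the arrays, but its 3 probes disagreed. Their means were 2.26, -0.08 and -0.56, so that the average rested on a single probe that had 2.12, 2.66 and 2.01. With the median of the probes in place of their mean the gene stood at -0.06. Slc1a2, a further glial carrier, had 0.55 ± 0.94, and Slc1a4, a carrier of alanine, serine and cysteine, had -0.31 ± 0.29.

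Other amino acid carriers were less even across arrays. Slc7a1, the main arginine and lysine importer, had -0.86, -0.80 and 0.29 (mean -0.46 ± 0.65), with array 3 on the other side. Slc43a1, a carrier of branched-chain amino acids, had -0.77, -1.06 and -0.04 (mean -0.62 ± 0.52). Slc6a20b, from the family of sodium and chloride dependent carriers, had 1.27, 1.02 and 0.75 (mean 1.01 ± 0.26), all above 0. It was the single one of 10 carriers of its family past the unadjusted threshold, which 19.6% of all genes passed. Of the 10, 7 were positive, and the median was 0.16. Slc6a6, the taurine carrier of that family, had -0.81, -0.94 and 4.35, so that the sign of its mean of 0.87 ± 3.01 came from array 3.

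**Figure D2:**
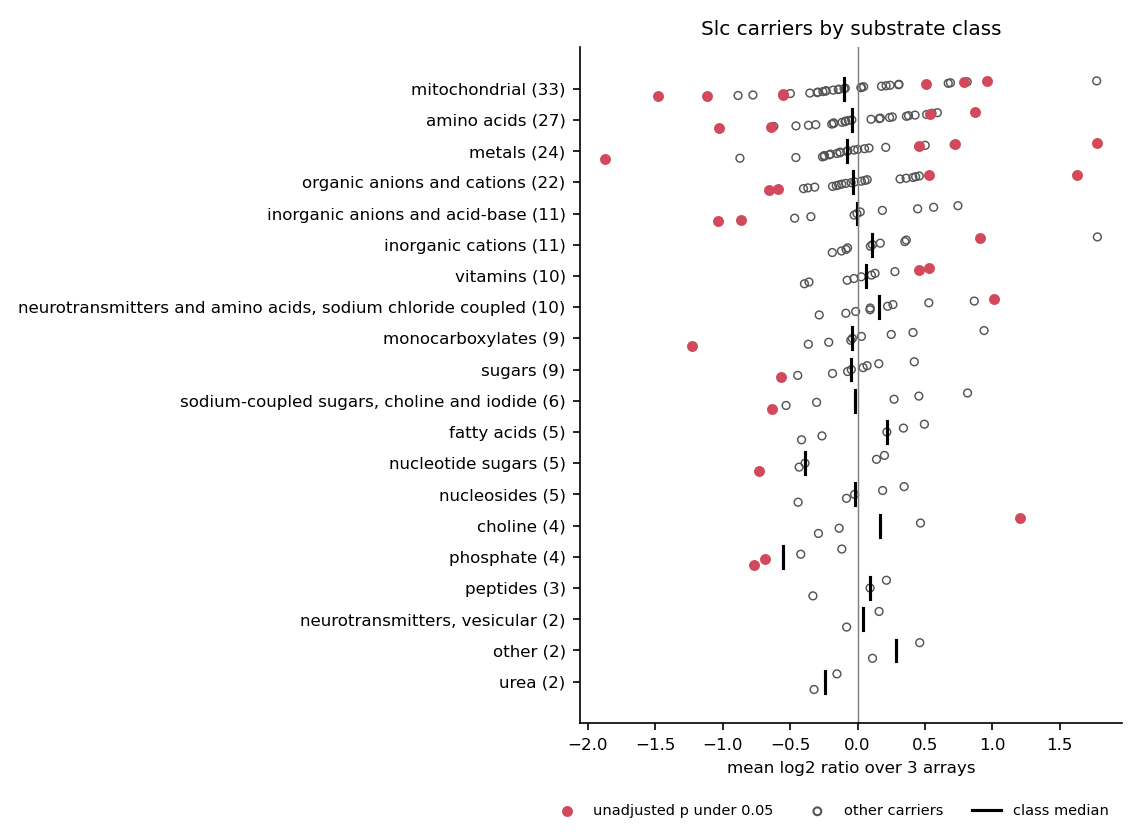
Mean log2 ratio over 3 arrays (horizontal axis) of each Slc carrier, grouped down the page by the substrate class of its family, with the number of carriers in brackets, filled points past an unadjusted p of 0.05 and a bar at the class median. The larger classes straddle 0, and the 4 phosphate carriers all lie below 0, their median at -0.55.

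Mitochondrial carriers of family 25, the largest family with 33 members, import and export the metabolites of the inner membrane. They had 15 positive and 18 negative means with a median of -0.10, and 3 positive and 4 negative members passed the unadjusted threshold. Those shares lay near the 9.89% and 9.69% of all genes that passed on each side. Carriers of dicarboxylates, citrate and aspartate were among the negative ones. Slc25a10, the dicarboxylate carrier, had -1.33, -1.76 and -1.35 (mean -1.48 ± 0.24, adjusted p = 0.149 by limma). Slc25a1, the citrate carrier, had -0.57, -0.31 and -0.78 (mean -0.55 ± 0.23). Slc25a13, an aspartate and glutamate exchanger, had -0.81, -0.35 and -0.49 (mean -0.55 ± 0.24), while its relative Slc25a12 was also below 0 on every array with a smaller mean of -0.23 ± 0.12.

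Slc25a39, which imports glutathione into mitochondria and is known from red cell precursors, had -1.28, -1.15 and -0.93 (mean -1.12 ± 0.18, adjusted p = 0.149 by limma). The erythroid markers given above had a median near 0, with Klf1 as the one past the unadjusted threshold, on the same negative side, and their part in this ratio was not tested. Slc25a38, which is needed for heme synthesis, had -0.27, -0.28 and 2.57, with a mean of 0.67 ± 1.64 that array 3 alone made positive. The ADP/ATP carriers, the bulk carriers of energy out of mitochondria, lay near 0 with Slc25a4 at 0.03 ± 0.26, Slc25a5 at -0.09 ± 0.08 and Slc25a31, the germ cell form, at -0.10 ± 0.59. The phosphate carrier Slc25a3 had -0.18 ± 0.49.

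On the positive side of family 25 the calcium-regulated ATP-Mg and phosphate carrier Slc25a23 had 0.50, 0.61 and 0.41 (mean 0.50 ± 0.10). Slc25a16, linked to coenzyme A supply, had 0.49, 1.09 and 0.78 (mean 0.79 ± 0.30). Slc25a53, a member without an assigned substrate, had 0.57, 0.50 and 1.82 (mean 0.96 ± 0.74). The highest mean of the family belonged to Slc25a24, a relative of Slc25a23, with 0.46, 1.16 and 3.70 (mean 1.77 ± 1.71), which did not pass the unadjusted threshold. Slc25a25, the next relative, had 1.07, -2.71 and -0.69, so the 3 genes of this ATP-Mg group did not behave alike from array to array.

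Phosphate carriers were all negative. Slc20a1, the widely expressed carrier PiT1, had -0.60, -1.04 and -0.66 (mean -0.77 ± 0.24, adjusted p = 0.170 by limma). Slc34a1, the carrier through which the proximal tubule recovers phosphate, had -1.05, -0.38 and -0.63 (mean -0.69 ± 0.34, adjusted p = 0.201 by limma). Slc20a2, or PiT2, had -0.49, -0.16 and -0.61 (mean -0.42 ± 0.23), and Slc34a2 had -0.33, 0.55 and -0.58 (mean -0.12 ± 0.59). Slc20a1 and Slc34a1 passed the unadjusted threshold. Of all genes 50.2% had a negative mean, and 9.69% passed that threshold on the negative side. With array 3 left out or turned, 3 of the 4 were negative, and with it turned 0 passed the unadjusted threshold.

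Genes known for their work in the mature nephron are of interest here because these stages come before any nephron. Of 27 such genes measured 8 had positive and 19 negative means, with a median of -0.14, and 0 positive and 4 negative passed an unadjusted p of 0.05. Of all genes 50.2% had a negative mean and 9.69% passed on the negative side. Leaving out array 3 gave 12 positive and 15 negative means with 2 negative past the threshold and a median of -0.03. Leaving out array 2 also left 2 negative past it, a dye term left 1, and turning array 3 gave 13 positive and 14 negative means with 0 past it. Besides the phosphate carriers these were Slc26a4, or pendrin, the chloride and bicarbonate exchanger of the collecting duct, with -0.21, -1.60 and -1.30 (mean -1.04 ± 0.73), and Slc13a3, a carrier of dicarboxylates such as succinate, with -0.17, -0.88 and -0.72 (mean -0.59 ± 0.37). In both genes array 1 was the one nearest to 0. Since levels are unknown, a ratio of these genes does not show that either tissue made the carrier. Slc12a1, Slc26a1, Slc2a2, Slc34a3, Slc4a7, Slc6a18 and Slc9a3 are further nephron genes that are not among the members.

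**Figure D3:**
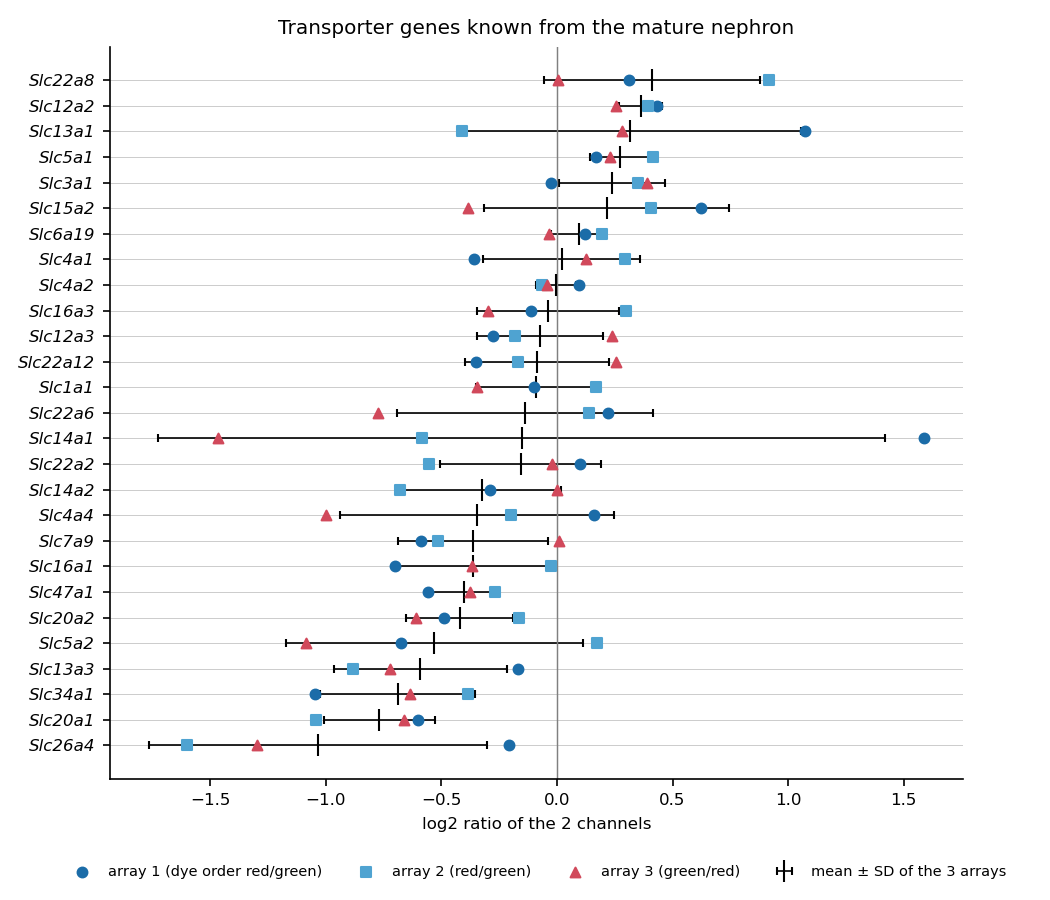
Log2 ratios of the 27 measured genes known from the mature nephron, one row a gene, with a point for each of the 3 arrays and a tick with a bar for the mean ± SD on a horizontal log2 axis. Means run from -1.04 for Slc26a4 to 0.41 for Slc22a8, and the arrays of many genes lie on both sides of 0.

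Sodium-coupled glucose carriers split. Slc5a2, the main glucose carrier of the proximal tubule, had -0.68, 0.17 and -1.09 (mean -0.53 ± 0.64), and Slc5a1, its partner farther along, had 0.17, 0.42 and 0.23 (mean 0.27 ± 0.13). Slc5a4b, related to a glucose sensor of human cells, had -0.43, -0.51 and -0.96 (mean -0.63 ± 0.29) and the neighbouring member Slc5a4a had 0.24, 1.60 and 0.62 (mean 0.82 ± 0.70). All 3 arrays thus put these related genes on opposite sides, and only Slc5a4b passed an unadjusted p. Among facilitated carriers, Slc2a3 had a mean of 0.16 ± 0.29 and Slc2a4 of -0.05 ± 0.57. Slc2a1, the common glucose carrier that was left out of the members, had -0.81, -1.68 and -1.06 (mean -1.18 ± 0.45). Slc37a2, which exchanges glucose phosphate for phosphate in the endoplasmic reticulum, had -0.59, -0.69 and -0.44 (mean -0.57 ± 0.13).

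Sodium chloride cotransporters did not pass the unadjusted threshold, whereas a sodium and calcium exchanger did. Slc12a3, the thiazide-sensitive cotransporter, had a mean of -0.07 ± 0.27. Slc12a2, the widely expressed sodium, potassium and chloride cotransporter, had 0.43, 0.40 and 0.26 (mean 0.36 ± 0.09), positive on every array and just short of the threshold at an unadjusted p of 0.061 by limma. Slc8a1, the sodium and calcium exchanger that is prominent in heart and distal tubule, had 0.63, 1.16 and 0.94 (mean 0.91 ± 0.27), and its 2 probes agreed in sign at 1.26 and 0.56. Slc9a8, a sodium and proton exchanger of the Golgi, had the highest mean of all Slc genes at 1.78 ± 1.90, but its values of 0.46, 0.92 and 3.95 left it at an adjusted p of 0.330 by limma. Of the 11 inorganic cation carriers 7 were positive with a median of 0.11. Slc8a1 was the one past the unadjusted threshold, which 19.6% of all genes passed.

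Acid-base and anion carriers had 5 positive and 6 negative means of 11, with a median of -0.0042. Slc4a8, a sodium-driven chloride and bicarbonate exchanger, had -0.85, -0.66 and -1.09 (mean -0.87 ± 0.22, adjusted p = 0.160 by limma). Slc4a4, the bicarbonate carrier of the proximal tubule, had 0.16, -0.20 and -1 (mean -0.35 ± 0.59). Slc4a1, band 3 of red cells and of the collecting duct, had -0.36, 0.29 and 0.12 (mean 0.02 ± 0.34), while the erythroid markers ran from Klf1 at -1.10 to Epb42 at 0.35. Slc4a2 was as near 0, at -0.0042 ± 0.09. Slc26a5, the motor protein of hair cells, had 0.53, 1.38 and 0.32 (mean 0.75 ± 0.56), positive on every array and just short of the unadjusted threshold.

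Organic anion and cation carriers had 1 member above all others. Slc22a16, known in human as a carrier of carnitine in the testis, had 1.66, 1.54 and 1.69 (mean 1.63 ± 0.08, adjusted p = 0.149 by limma), next to Slc40a1 in closeness of its arrays among the genes above 1. The classic drug carriers of the kidney did not pass the unadjusted threshold. Slc22a6 (OAT1) had 0.22, 0.14 and -0.78 (mean -0.14 ± 0.55), Slc22a8 (OAT3) had 0.31, 0.92 and 0.0043 (mean 0.41 ± 0.47), and Slc22a2 (OCT2) had 0.10, -0.55 and -0.02 (mean -0.16 ± 0.35). The apical extrusion carrier Slc47a1 had -0.56, -0.27 and -0.38 (mean -0.40 ± 0.15), negative on every array. Slc22a15 had -0.66 ± 0.36 and Slc22a17, a receptor of lipocalin-bound iron, had 0.53 ± 0.23, both past the unadjusted threshold. Of the 22 carriers 10 were positive and 12 negative, with 2 past that threshold on each side and a median of -0.03. Among all genes 9.89% passed as positive and 9.69% as negative.

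Monocarboxylate carriers move lactate, pyruvate and related acids. Slc16a13 had -1.12, -1.50 and -1.05 (mean -1.23 ± 0.24, adjusted p = 0.149 by limma). The lactate carriers Slc16a1 and Slc16a3 had means of -0.37 ± 0.34 and -0.04 ± 0.31, with array 2 of Slc16a3 above 0. Slc16a10, a carrier of aromatic amino acids and thyroid hormone, was the highest of the 9 at 1.26, 1.72 and -0.17 (mean 0.94 ± 0.98), with array 3 on the other side. The family had 4 positive and 5 negative means.

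Among the smaller classes, vitamin carriers had 2 of 10 past the unadjusted threshold, where 19.6% of all genes passed. Both were positive, a side on which 9.89% of all genes passed, and both were of the ascorbate family. Slc23a2, the vitamin C carrier of most tissues, had 0.50, 0.46 and 0.40 (mean 0.45 ± 0.05), and its relative Slc23a4 had 0.69, 0.58 and 0.31 (mean 0.53 ± 0.20), whereas Slc23a1, the vitamin C carrier of epithelia, had -0.57, -0.62 and 0.11 (mean -0.36 ± 0.40). Nucleotide sugar carriers feed glycosylation in the Golgi, and their member Slc35a4 had -0.80, -0.92 and -0.48 (mean -0.73 ± 0.23). Of the choline-like carriers, Slc44a3 had 0.67, 0.68 and 2.26 (mean 1.21 ± 0.91). Fatty acid, nucleoside, peptide and urea carriers and the vesicular neurotransmitter carriers had 0 members past an unadjusted p of 0.05 by limma. In the urea carriers, Slc14a1 had 1.59, -0.58 and -1.47 (mean -0.15 ± 1.57), on both sides of 0.

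The 6 members that are no carriers had 4 positive and 2 negative means. Slc4a1ap, an adaptor named for binding band 3, had 0.76, 0.45 and 0.84 (mean 0.68 ± 0.21). The opposite-strand transcript Slc36a1os had 0.66, 0.59 and 0.56 (mean 0.61 ± 0.05), while the carrier gene Slc36a1 had 0.47, -0.23 and -0.59 (mean -0.11 ± 0.54). Slc7a6os had -0.45 ± 0.11, with probe means of -0.84 and -0.07.

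The larger families had members on both sides. All 19 families with 4 or more measured members held both positive and negative means, where 49.8% of all genes had a positive mean. Family 30 did so only through Slc30a3 at 0.0015, whose sign turned under several alternatives. In 5 of the 19, members passed the unadjusted threshold on both sides. Family 4 was among these only through the adaptor gene Slc4a1ap. Several probes were averaged for 13 members, and in 6 of these the probes gave means on both sides of 0. Slc24a2, a sodium and calcium-potassium exchanger, differed most after Slc1a3, with probes at 1.26 and -0.56. The other 197 members rest on a single probe with values on all arrays. One of these, Slc14a1, has a second probe without a value on array 1, which had 1.26 and 1.61 on arrays 2 and 3, against -0.58 and -1.47 for the probe used.

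**Figure D4:**
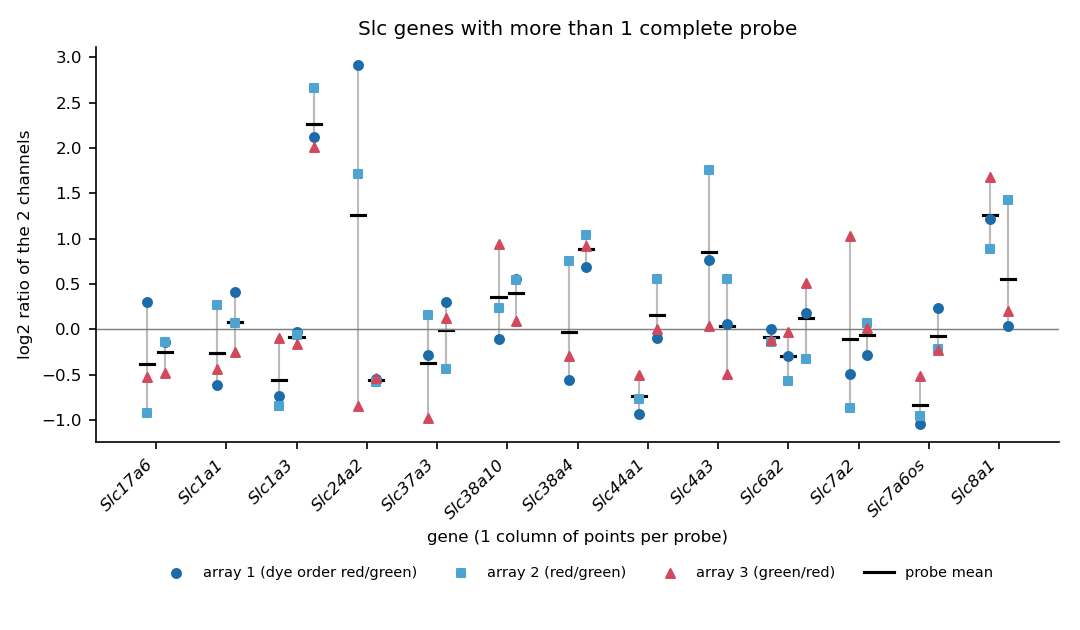
Log2 ratio (vertical axis) of each probe of the 13 Slc genes with more than 1 probe measured on all arrays, with the genes along the horizontal axis, a column of 3 points (the arrays) for each probe, and a bar at the probe's mean. The means of the 3 probes of Slc1a3 spread from -0.56 to 2.26, and those of Slc8a1 both lie above 0.

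Array 3, the one with the other dye order, often lay on the other side of 0. The mean of arrays 1 and 2 and the value of array 3 lay on the same side of 0 for 126 Slc genes and on opposite sides for 84. Arrays 1 and 2 had one sign for 147 Slc genes (70%, where 71.1% of all genes did), and array 3 had the other sign for 52 of these (24.8% of the Slc genes, where 25.6% of all genes did). Array 3 was the array farthest from 0 for 69 Slc genes (32.9%, where 34.3% of all genes did). With array 3 turned the other way 10 Slc genes passed the unadjusted threshold (5.55% of all genes then did), and 0 of them were among the 35. Of the 83 genes named by rule 23 then had a mean of the other sign, among them Slc9a8 and Slc25a24. The leading genes were chosen for one sign on all arrays, so that their signs match across dye order by choice. Slc40a1 had 1.78 over arrays 1 and 2 and 1.77 on array 3, Slc22a16 had 1.60 and 1.69, and Slc39a7 had -1.66 and -2.31.

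**Figure D5:**
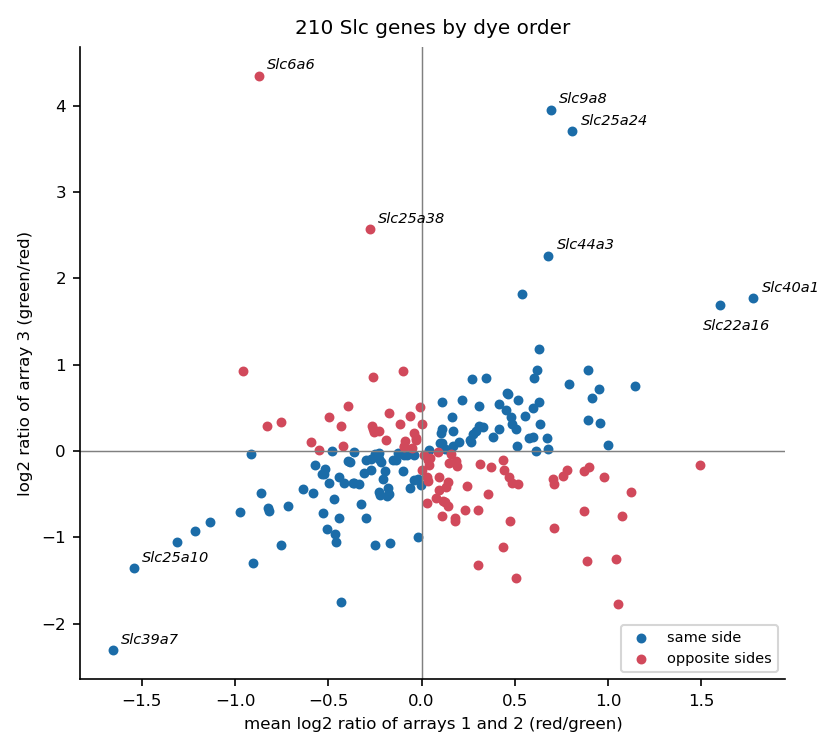
Mean log2 ratio on arrays 1 and 2 (horizontal axis) against the log2 ratio on array 3, which had the other dye order (vertical axis), with a point for each of the 210 Slc genes. Slc40a1, Slc22a16 and Slc39a7 lie near the diagonal, and Slc6a6 and Slc25a38 lie above it with array 3 alone on the positive side.

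An SD over the arrays of at least 1 was found for 17 Slc genes (8.1%, against 12.9% of all genes), and 0 of these passed an unadjusted p by limma. The test sets the mean against this spread, so a choice by large SD itself makes passing unlikely. Leaving out array 1 gave 20 Slc genes past the unadjusted threshold (8.11% of all genes), leaving out array 2 gave 16 (9.27%) and leaving out array 3 gave 38 (20.9%). Of the original 35, 15 were among the first, 14 among the second and 22 among the third.

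Other transport genes were taken by their symbol prefix, and 0 of them passed an adjusted p by limma. An unadjusted p of 0.05 was passed by 19.6% of all genes, 9.89% on the positive and 9.69% on the negative side. Of 33 ABC transporters, pumps driven by ATP, 3 positive and 6 negative members passed it, with a median of -0.17. Abca8b was the highest of those that passed, at 1.40, 1.64 and 2.01 (mean 1.68 ± 0.31), and Abcc1, which exports glutathione conjugates, had 0.63 ± 0.31. Of 10 Slco organic anion carriers 2 passed, both positive, with a median of 0.31. The V-ATPase, which acidifies organelles, had 1 positive and 2 negative of 16 past the threshold, with Atp6v1b2 at -1.13 ± 0.36. Of 9 aquaporins 1 passed, Aqp9 at 0.47 ± 0.12, and 0 of 7 sodium and proton potassium ATPases and 0 of 9 calcium and copper ATPases did.

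Genes that mark other tissues and cell types also had ratios away from 0. All 5 renal stroma markers were positive (median 1.47), and all 5 limb and flank markers were negative (median -1.14), as were 5 of 6 muscle markers (median -1.72) and 7 of 8 endothelium markers (median -0.41). Metanephric mesenchyme markers had 7 positive and 3 negative means (median 0.21), and ureteric bud markers 6 and 4 (median 0.12). The part of these tissues in the ratios of the Slc genes was not tested.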

How the data were processed

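Metanephroi of 11.5 dpc and metanephric mesenchyme of 10.5 dpc shared each of 3 two-colour arrays. Per the labels, Imagene 5.5 was used for image analysis and the authors applied print-tip lowess and a normalization between arrays, with a fit over 20% of the data and a floor of 10 for the control channel. The deposited values are log2 ratios, used as the authors left them. Genome build and numerator channel are not given in the sources used here, intensities were not analysed, and precision is limited by having 3 arrays.

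Of 22702 rows, 784 control, blank and buffer spots were left out. Of 21918 gene probes 16656 had 1 gene symbol in the platform annotation, 137 had several and 5125 none. Entrez identifiers matched RefSeq for 15970 and changed 0 symbols. Probes of 1 symbol with values on all 3 arrays were averaged, which gave 14047 genes. All were fitted in R 4.3.3 with limma 3.58.1 (lmFit, then eBayes), the mean ratio against 0, two-sided, with Benjamini-Hochberg adjustment over all genes. Tables and plots were made in Python 3.11.15 with Matplotlib 3.10.9.

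Members, lists and classes were chosen with earlier results of these data known. The rule for named genes took per side the 12 genes of smallest unadjusted p with one sign on all arrays. It added the nephron, iron and heteromeric exchanger genes, the highest and lowest member of each family of 4 or more, and genes whose probes differed in sign by at least 1. It gave 83 genes. Other genes were named after their values were seen. The labels do not say whether array 3 was already turned, and it was used as deposited. As deposited, all 5 renal stroma markers were positive and all 5 limb and flank markers negative on each of the 3 arrays. For these genes array 3 thus ran the same way as arrays 1 and 2, and turning it would set it against them. Each of the other marker lists held some genes whose arrays differed in sign. Across probes it correlated with arrays 1 and 2 at 0.0517 and 0.0148 (Pearson) and 0.211 and 0.171 (Spearman). It shared the sign of arrays 1 and 2 for 6386 genes and had the other sign for 3603. With array 3 turned, an alternative, 779 genes passed the unadjusted threshold, against 2750 as deposited. Data were simulated for this fit with 200 of 14047 genes changed, as independent normal values with each gene's own SD and no array or dye effect. A log2 ratio of 1 was found for 76.5% at an unadjusted p under 0.05 by limma and for 0 genes at an adjusted p. A ratio of 2 was found for 97.5% and 83 genes, with 3 unchanged genes also past the adjusted p. Of the unchanged genes 5.73% and 5.89% passed the unadjusted p. The deposited arrays differ from this setting, so these rates need not hold for them. Further alternatives were centring, scaling, a dye term, other variances, array weights, other ways of joining probes, values on 2 arrays and leaving out each array.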

Additional observations from a re-analysis of the deposited data

How the results depend on the processing

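No Slc gene passed an adjusted p of 0.05 by limma under any alternative run, and the median of the Slc genes stayed between -0.0358 and 0.0488. The 35 Slc genes at an unadjusted p became 10 with array 3 turned and 54 with array weights, and 16 to 38 with an array left out. Of all genes 19.6% passed in the main fit, 5.55% with array 3 turned and 28.3% with array weights, where 25.7% of the Slc genes passed. With an array left out, 8.11% to 20.9% of all genes passed. The 17 positive ones became 7 with array 3 turned and 27 with array weights, and 8 to 21 with an array left out. The 18 negative ones became 3 with array 3 turned and 27 with array weights, and 8 to 17 with an array left out. Named genes past it numbered 29, against 4 with array 3 turned and 15 to 27 with an array left out. Genes with one sign on every array numbered 95, against 52 with array 3 turned and 128 to 147 when 2 arrays had to agree. The array weights were 2.37 for array 1 and 0.505 for array 3. The cause of these shifts was not tested. Each array's ratio already pairs the tissues, so the test against 0 is the paired test, and no replicate block can be added to a single group of arrays.

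Of 83 named genes the sign of the mean log2 ratio changed for 23 with array 3 turned. They then stood at Slc11a1 0.0632, Slc14a1 0.82, Slc16a3 0.16, Slc1a1 0.14, Slc1a4 0.0062, Slc22a15 0.0466, Slc22a6 0.38, Slc25a24 -0.70, Slc2a3 -0.0095, Slc30a9 0.29, Slc3a1 -0.023, Slc44a3 -0.30, Slc46a1 -0.10, Slc4a1 -0.0629, Slc4a2 0.0242, Slc4a4 0.32, Slc5a2 0.19, Slc5a4b 0.01, Slc6a21 0.0493, Slc7a10 -0.0537, Slc7a7 0.33, Slc9a3r2 0.13 and Slc9a8 -0.86. With a dye term the sign turned for Slc12a3 0.0039, Slc25a37 -0.17 and Slc30a3 -0.0204. With array weights it turned for Slc14a1 0.69, Slc22a6 0.0657, Slc48a1 -0.0537, Slc4a1 -0.15, Slc4a2 0.0403 and Slc7a7 0.14. With values on at least 2 arrays it turned for Slc14a1 0.67. With incomplete probes also averaged, an alternative chosen after seeing the data, it turned for Slc14a1 0.67. With the median of probes it turned for Slc1a3 -0.0622. With median centring it turned for Slc30a3 -0.013. With scaling to one spread it turned for Slc30a3 -0.0008. Leaving out each array in turn also turned the sign of some genes, with these lowest and highest values, Slc12a3 -0.23 to 0.0284, Slc13a1 -0.063 to 0.68, Slc14a1 0.0619 to 0.50, Slc16a3 -0.21 to 0.0925, Slc1a1 -0.22 to 0.0331, Slc22a12 -0.26 to 0.0447, Slc22a2 -0.29 to 0.04, Slc22a6 -0.32 to 0.18, Slc24a2 -0.065 to 0.87, Slc25a37 -0.19 to 0.47, Slc30a3 -0.0281 to 0.0454, Slc35a2 -0.0289 to 0.49, Slc46a1 0 to 0.19, Slc48a1 -0.19 to 0.20, Slc4a1 -0.12 to 0.21, Slc4a2 -0.0537 to 0.0262, Slc7a5 -0.0906 to 1.13, Slc7a7 -0.50 to 0.11, Slc7a8 -0.43 to 0.0599 and Slc9a3r2 -0.40 to 0.0007. The Slc14a1 value without array 1, 0.21, also averaged its second probe, which had values on arrays 2 and 3 alone.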

Other observations

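Of the 229 Slc symbols on the array 19 lacked a value on at least 1 of the arrays and were not tested. Slc2a2, the glucose carrier of liver and proximal tubule, had 0.21 on array 1 and 0.49 on array 3. Slc9a3, the sodium and proton exchanger of the proximal tubule, had 0.45 and 1.36 on the same arrays. Slc7a11, the cystine light chain, had 0.58 on array 3 alone, and Slc6a9, a glycine carrier, had -2.08 on array 1 alone. Slc17a1, Slc17a5, Slc25a54 and Slc9a2 had their 2 values on opposite sides of 0, such as -1.20 on array 1 and 1.89 on array 3 for Slc9a2.

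Slc symbols with another letter after the family number fall outside the name rule. Of 14 measured, 8 had positive means. Slc18b1, a vesicular polyamine carrier, had 1.37, 0.63 and 1.93 (mean 1.31 ± 0.66, SD, n = 3), and Slc35f6 had -0.84, -0.65 and -1.10 (mean -0.87 ± 0.23). These are the pair past an unadjusted p of 0.05, and 0 of the 14 passed an adjusted p by limma. Slc35d2 had the lowest mean, at -5.60, -1.90 and -0.91.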
